A study of Mus musculus with 4 samples.

Results

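CD8 T cells of the effector type with few transcripts for checkpoint receptors were followed through 4 mouse single-cell RNA-seq libraries. A cell counted as one of these checkpoint-low effectors where it held at least 2 UMIs (unique molecular identifiers, each standing for 1 captured transcript) of Cd3e, Cd3d and Cd3g together, at least 1 of Cd8a and Cd8b1, 0 of Cd4, at least 3 of Ccl5 and Nkg7, at most 1 of Pdcd1, Havcr2, Lag3 and Tigit, and at most 1 of Mki67 and Top2a. The rule found 1054 such cells among 35372 kept cells, those with 500 or more genes detected and a mitochondrial share of 10% or less. The genes of the rule are given below only as a description, since they chose the cells.

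The study concerns glycan targeting and checkpoint blockade in ovarian tumours, and the labels name lymph node as the tissue of all 4 libraries. One library was made per treatment: 2-deoxy-D-glucose with aPDL1 (2DG_aPDL1, called the combination here), aPDL1 alone, 2-deoxy-D-glucose alone (2DG, a glucose analogue), and a control (ctrl). The series design mentions young and aged, treated and naive mice, but the labels give no age, strain, dose, duration or number of animals for any library. With 1 library per treatment there is no spread between replicates. Values are therefore given without tests, and the intervals printed with shares and levels are exact 95% intervals that cover counting error only.

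Cytotoxic CD8 T cells kill by releasing perforin, which opens a path into the target cell, and granzymes, proteases that start its death. Under lasting antigen, such cells take on the inhibitory receptors PD-1, TIM-3, LAG-3 and TIGIT together with the transcription factor Tox. Cells that keep TCF-1 (Tcf7), Lef1, the receptor for interleukin 7 and the trafficking factor Klf2 are known for long life and the capacity to renew, while Cx3cr1 and killer lectin-like receptors mark other effector and memory states.

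The checkpoint-low effectors numbered 341 in the combination, 360 with aPDL1, 317 with 2DG and 36 in ctrl, and held 1810214, 1843263, 1800079 and 206129 UMIs in that order. Each value for ctrl therefore rests on far less material than the others. Median UMIs per cell were 4792, 4892, 5100 and 5589, against 6277, 6389, 6380 and 7370.5 in the CD8 cells that passed the same rule except for holding at least 2 checkpoint receptor UMIs (1150, 974, 753 and 64 cells, called checkpoint-receptor cells below). A shallow cell can thus fall under the receptor limit by depth alone. Just inside the limit, 141, 157, 142 and 17 cells held 1 receptor UMI, and just outside it 147, 150, 134 and 12 cells held 2. Any pair of libraries shared 20 to 25 cell barcodes among all kept cells, and 0 among the checkpoint-low effectors.

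Markers of other cell types were detected in every library, and those of neutrophils and red cells were high in ctrl. The 6 monocyte or macrophage markers summed to 489, 413, 389 and 281 CPM (UMIs scaled to the total of these cells in the library) in the combination, aPDL1, 2DG and ctrl, and 19.4 to 25.0% of the cells held a UMI of them. Neutrophil markers gave 18.2, 71.1 and 42.2 CPM in the treated libraries but 990 CPM in ctrl, above the 669.5 CPM of its CD8 markers, and were found in 5.28, 5.28, 7.26 and 38.9% of cells. B cell markers reached 34.8 CPM in the combination, against 5.43, 6.11 and 9.70 CPM elsewhere. The 4 epithelial or tumour markers summed to between 0 and 5.0 CPM, with Krt19 at 0 in every library. NK cell markers summed to 51.9, 38.0, 21.1 and 24.3 CPM, with Ncr1 and Klrb1c at 0 in ctrl, and γδ T cell markers to 4.42, 6.51, 30 and 9.70 CPM, with Sox13 at 0 in every library. Red cell markers were at 451 CPM in ctrl, from 5.56% of its cells, and at most 1.67 CPM elsewhere. The part of these other cells in the results was not tested beyond the values without cells that held such markers, given where they differ. Among all kept cells, those with B cell markers made up 5.70, 2.95, 1.86 and 0.847%, and myeloid cells 38.4, 36.5, 31.2 and 39.9%. B cells, which abound in a lymph node, were thus few beside myeloid cells, which goes against the tissue label.

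The treated libraries held about the same share of checkpoint-low effectors, and ctrl held far fewer. They made up 3.67% of cells in the combination (3.30 to 4.07), 3.98% with aPDL1 (3.59 to 4.40), 3.99% with 2DG (3.57 to 4.45) and 0.396% in ctrl (0.278 to 0.548). The intervals of the 3 treated libraries overlap and all lie above that of ctrl. Within CD8 T cells the order differed, with 18.3% in the combination (16.6 to 20.1), 20.4% with aPDL1 (18.6 to 22.4), 21.55% with 2DG (19.5 to 23.7) and 26.7% in ctrl (19.4 to 35.0). The low share in ctrl was thus that of CD8 T cells as a whole, 135 of 9091 cells, and not one of these cells among CD8 T cells. With every cell thinned to 2000 UMIs before the rule was applied, the share of CD8 T cells was 41.0% in the combination, 42.6% with aPDL1, 52.2% with 2DG and 48.8% in ctrl, so the size of the group depends on depth.

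**Figure D1:**
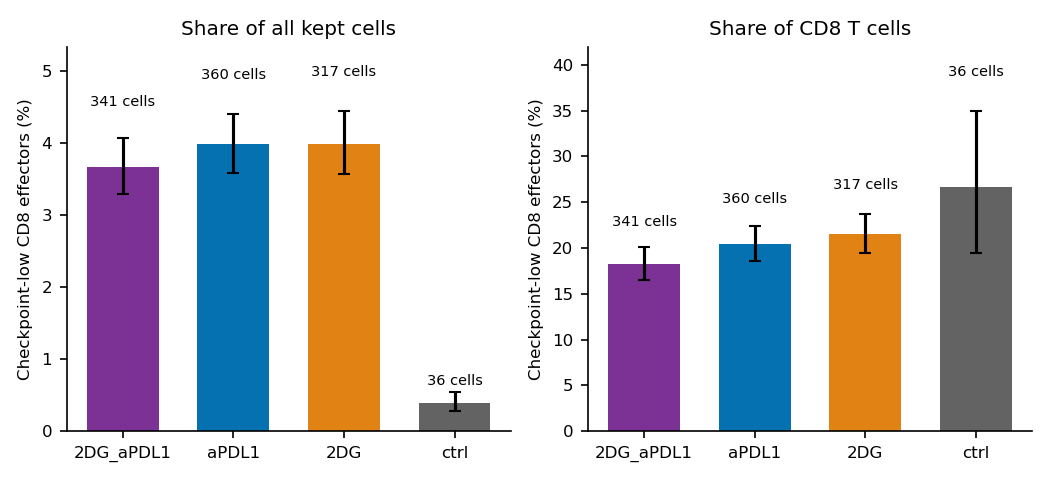
Share of checkpoint-low CD8 effectors among all kept cells (left) and among CD8 T cells (right) in each library, in percent, with exact 95% counting intervals and the number of cells above each bar. The 3 treated libraries sit at 3.67 to 3.99% of cells and ctrl at 0.396%, while in the right panel ctrl is at 26.7%, above the others with a wide interval.

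Against checkpoint-receptor cells of the same library, the checkpoint-low effectors carried more RNA of naive and memory genes and less of perforin, interferon gamma and the chemokines Ccl3 and Ccl4. Of 3684 genes with at least 10 expected UMIs in both cell sets of every library, 47 were at least 1.5-fold higher in all 4 libraries (1.28%) and 72 at least 1.5-fold lower (1.95%). The rule made this contrast, so its counts and ratios are a description and support nothing about the cells. By the smallest ratio over the libraries, Tcf7, Klf2, Aff3, Lef1 and Sidt1 led the genes that were higher, and Serpine2, Gpm6b, Wscd2, Prf1 and the predicted gene Gm33843 those that were lower.

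Naive and memory genes were the group most tilted towards checkpoint-low cells. Of 10 genes of the list measured in all libraries, 7 passed 1.5-fold upwards in every library (Tcf7, Lef1, Klf2, Il7r, Bach2, Foxp1 and Bcl2) and 0 passed downwards. Of all genes, 1.28% passed upwards and 1.95% downwards. The median log2 ratio of the list was 1.587 in the combination, 1.181 with aPDL1, 1.33 with 2DG and 1.56 in ctrl, where the median over all measured genes lay between -0.06 and -0.02. Tcf7, which encodes TCF-1, had 96.7, 116, 119 and 209 CPM in checkpoint-low cells of the combination, aPDL1, 2DG and ctrl, against 14.7, 15.7, 23.7 and 11.7 CPM in checkpoint-receptor cells. All 4 values of the checkpoint-low cells lie above all 4 of the others, with log2 ratios of 2.72, 2.88, 2.32 and 4.05. Lef1, its partner at the same DNA sites, had 276, 213, 232 and 577 CPM against 57.8, 54.5, 68.9 and 104 CPM, and was likewise separated in every library. Klf2, a driver of S1pr1 and of exit from tissue, stood at 485, 244, 172 and 417 CPM against 132, 55.0, 48.9 and 68.5 CPM. Il7r, the receptor chain for interleukin 7, had 375, 250, 157 and 340 CPM against 162, 122, 57.8 and 159 CPM, so that here the 2DG cells overlap the checkpoint-receptor cells of other libraries. Bach2, a repressor of effector genes, had 540, 407, 306 and 660 CPM against 224, 182, 163 and 97.9 CPM. The survival gene Bcl2 had 906, 806, 818 and 956 CPM against 213, 278, 396 and 562 CPM.

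Tcf7 was nevertheless detected in a minority of the cells. At 2000 UMIs per cell it was found in 14.6% of checkpoint-low cells in the combination (11.02 to 18.9), 15.0% with aPDL1 (11.3 to 19.2), 19.3% with 2DG (15.1 to 24.1) and 13.3% in ctrl (3.75 to 30.7), and unthinned in 26.1, 29.7, 34.7 and 25.0%. Checkpoint-receptor cells at the same depth gave 2.79, 3.11, 3.60 and 1.61%, and myeloid cells, which should lack the gene, 0.143, 0.280, 0.208 and 0.0580%. Lef1 was found in 26.9, 25.5, 24.4 and 43.3% of thinned checkpoint-low cells. A UMI count of 0 at this depth does not show that a cell lacks the transcript.

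Genes of trafficking gave a mixed picture. Of 13 homing and residence genes measured in all libraries, 1 (Ly6c2) passed 1.5-fold upwards everywhere and 0 passed downwards. Of all genes, 1.28 and 1.95% did. S1pr1, the receptor that draws T cells out of tissue, had 37.6, 32.6, 21.7 and 14.6 CPM in checkpoint-low cells against 6.02, 6.41, 2.96 and 1.96 CPM, with too few UMIs in ctrl (3 and 1) for the filter. Cxcr3, the receptor for interferon-induced chemokines, had 41.4, 56.4, 59.4 and 67.9 CPM against 20.7, 16.8, 21.3 and 9.79 CPM. With cells chosen on thinned counts its log2 ratio was -0.00556 in the combination, 1.44 with aPDL1 and 0.32 with 2DG, so that the difference was lost in the combination and fell under 1.5-fold with 2DG. Itgb1, an integrin chain, was higher in the treated libraries at 423, 556 and 642 CPM against 195, 236 and 286 CPM, and lower in ctrl at 238 CPM against 329 CPM, where thinned counts gave a log2 ratio of 1.695 in place of -0.46. Cxcr6, a receptor of tissue-dwelling T cells, went the other way with 239, 257, 231 and 223 CPM against 478, 377, 396 and 333 CPM, and turned to 0.29 in ctrl on thinned counts.

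Cytotoxic genes split between perforin and granzyme A. Of 11 genes of the list measured in all libraries, 3 passed 1.5-fold downwards everywhere (Prf1, Cst7 and Tnfsf10) and 0 upwards. Of all genes, 1.95% passed downwards and 1.28% upwards. Prf1, the pore-forming protein, had 152.5, 140, 113 and 112 CPM in checkpoint-low cells against 558.5, 667, 434 and 405 CPM in checkpoint-receptor cells, with log2 ratios of -1.87, -2.25, -1.93 and -1.83. The 2 sets do not overlap in any library. Gzma, a granzyme of early and circulating effectors in mice, was higher in the treated libraries, with 828, 528 and 614 CPM against 200, 313 and 130 CPM, and not in ctrl, with 126 CPM from 26 UMIs against 192 CPM. That log2 ratio in ctrl, -0.58, was 5.10 with cells chosen on counts thinned to 2000 UMIs, so it has no settled direction. Gzmb, the main caspase-cleaving granzyme, had 556, 188, 248 and 97.0 CPM against 691, 514, 420 and 528.5 CPM, a gap that was narrowest in the combination. Gzmk, typical of memory-like effectors, had 91.7, 75.95, 82.2 and 87.3 CPM against 62.6, 64.1, 64.4 and 129 CPM, and Fasl, the death ligand, 147.5, 141, 138 and 131 CPM against 120.5, 121, 110 and 166 CPM. Both were higher in the treated libraries and lower in ctrl, by less than 1.5-fold at each point. The granzymes Gzme, Gzmf and Gzmg had 0 UMIs in checkpoint-low cells of every library, which allows levels of up to 1.66, 1.63, 1.67 and 14.6 CPM. Checkpoint-receptor cells held Gzme at 6.4, 12.2, 33.9 and 0 CPM and Gzmf at 23.3, 8.16, 14.4 and 0 CPM.

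The promoters of 3 killing genes, Gzmb, Gzma and Prf1, are shown. Against checkpoint-receptor cells, Gzmb and Prf1 were lower in all 4 libraries, while Gzma was higher in the treated ones. Each line gives the 250 bases before the transcription start on the gene's own strand, from RefSeq on mouse build GRCm38.p6, with matches in capitals to TGTGGT, the core of Runx sites (on either strand, so that ACCACA also counts), and to TGANTCA, the AP-1 site.
Gzmb, chr14:56262335-56262584, minus strand: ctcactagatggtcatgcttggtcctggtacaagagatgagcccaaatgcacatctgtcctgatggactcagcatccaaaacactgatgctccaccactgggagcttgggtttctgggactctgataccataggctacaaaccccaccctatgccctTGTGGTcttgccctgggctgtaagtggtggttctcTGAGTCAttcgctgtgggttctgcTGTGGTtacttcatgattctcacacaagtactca
Gzma, chr13:113100982-113101231, minus strand: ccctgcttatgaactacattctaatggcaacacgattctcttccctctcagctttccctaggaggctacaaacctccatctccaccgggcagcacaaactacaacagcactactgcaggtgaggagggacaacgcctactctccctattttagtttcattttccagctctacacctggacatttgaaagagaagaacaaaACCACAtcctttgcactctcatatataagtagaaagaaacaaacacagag
Prf1, chr10:61297586-61297835, plus strand: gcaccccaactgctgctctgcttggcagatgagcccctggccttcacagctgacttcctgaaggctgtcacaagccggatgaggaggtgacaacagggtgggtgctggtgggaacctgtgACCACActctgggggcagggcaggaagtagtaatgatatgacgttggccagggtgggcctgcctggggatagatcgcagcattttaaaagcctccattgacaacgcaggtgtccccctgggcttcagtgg

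The Gzmb window holds the Runx core in 2 places, 93 and 34 bases before the start, and the AP-1 letters 58 bases before it. The windows of Gzma and Prf1 hold the Runx core once each, on the opposite strand, 50 and 130 bases before the start, and no AP-1 match. Of 32851 promoter windows of the same length, 14.0% hold the Runx core and 6.75% the AP-1 letters. Searches for TGACGTCA (1.55% of windows) and for the T-box letters TCACACCT (1.12%), on both strands, found no match in the 3 windows. A match is a run of letters and not a bound site.

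Some secreted factors and regulators of the exhausted state were lower in checkpoint-low cells. Of 6 cytokine and chemokine genes measured in all libraries, 3 passed 1.5-fold downwards everywhere (Ifng, Ccl3 and Ccl4) and 0 upwards, while in 2DG the genes measured there split into 4 higher and 4 lower. Ifng had 235, 236, 212 and 107 CPM against 645, 599, 509 and 256 CPM, and Ccl3, a chemokine of activated T cells, 98.3, 89.5, 57.2 and 82.5 CPM against 776, 430, 417 and 247 CPM. Csf1, the macrophage growth factor, had 16, 20, 18 and 2 UMIs or 8.84, 10.85, 10.0 and 9.70 CPM, against 122.5, 48.55, 44.1 and 35.2 CPM. Of 17 effector regulators, 4 passed downwards (Tox, Batf, Irf8 and Nr4a2) and 0 upwards. Beside both lists stand 1.95% of all genes downwards and 1.28% upwards. Tox, a driver of the exhausted program, remained well detected at 637, 870, 1130 and 912 CPM against 1381, 1698, 1776 and 1595 CPM. Of receptors that the rule did not use, Ctla4 had 476, 313, 316 and 335 CPM against 956, 568, 565 and 801 CPM, and Tnfrsf9 (4-1BB) 107, 61.8, 42.8 and 107 CPM against 312, 200, 164 and 188 CPM. Cd244a also passed downwards everywhere, and Entpd1 (CD39) did so in the treated libraries only, at 83.97, 119 and 133 CPM against 297, 294 and 263 CPM, with 204 CPM against 286 CPM in ctrl. Of 9 other inhibitory receptor genes measured in all libraries, 2 passed downwards everywhere and 0 upwards, and of 10 costimulation genes 1 and 0. Of all genes, 1.95% passed downwards and 1.28% upwards. In 2DG, 6 of the 12 other inhibitory genes measured there were higher and 6 lower. The receptors named here were thus lower, not absent, in checkpoint-low cells, and their lists as a whole were mixed. With cells chosen on thinned counts, the log2 ratios of Ifng were smaller, at -0.56, -0.58, -0.67 and -0.68. Those of Ctla4 were -0.41, -0.55, -0.36 and -0.93, so that Ctla4 no longer passed in the treated libraries. Those of Prf1 stayed past 1.5-fold at -1.19, -1.40, -1.37 and -2.11. Thinning closes the depth gap between the sets but also changes which cells are chosen. It left 602, 535, 533 and 40 checkpoint-low cells in place of 341, 360, 317 and 36. The part of depth and of the changed choice of cells in the smaller ratios was not tested.

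Metabolic genes differed by small steps. Of 14 glycolysis genes measured in all libraries, 0 passed 1.5-fold in all 4 in either direction, and the median log2 ratio of the list was -0.14 in the combination, -0.37 with aPDL1, -0.21 with 2DG and -0.48 in ctrl. Of 41 oxidative phosphorylation genes, 34, 38, 37 and 30 were lower, with medians of -0.18, -0.29, -0.27 and -0.18 and 0 past 1.5-fold in all 4 libraries. Of all genes, 47.4, 46.4, 47.4 and 45.9% were higher, so that more of the oxidative phosphorylation list lay below 0 than of all genes. None of the N-glycan lists, of 5 early and 9 later enzymes measured in all libraries, held a gene past 1.5-fold in all 4.

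**Figure D2:**
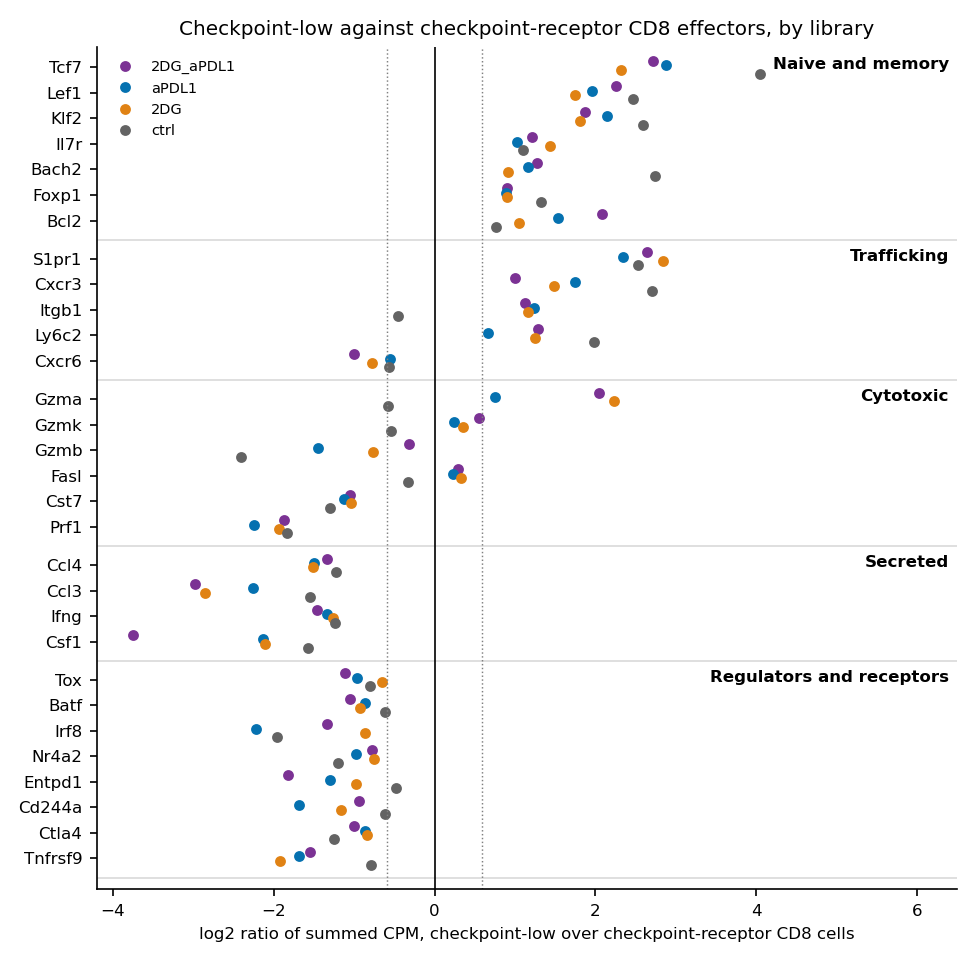
Log2 ratio of summed CPM in checkpoint-low over checkpoint-receptor CD8 cells for 30 genes, one point per library, with dotted lines at 1.5-fold. All points of Tcf7, Lef1, Klf2, Il7r, Bach2, Foxp1 and Bcl2 lie to the right of 1.5-fold, those of Prf1, Ccl3, Ccl4, Ifng, Irf8 and Ctla4 to the left, and Gzma, Gzmk and Itgb1 lie to the right of 0 in the treated libraries and to the left in ctrl.

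Between treatments, granzyme B was highest in the checkpoint-low cells of the combination. Gzmb had 556 CPM in the combination (522 to 592), 188 with aPDL1 (168 to 209), 248 with 2DG (225 to 272) and 97.0 in ctrl (59.3 to 150, from 20 UMIs). The combination was high, the single treatments lay between, and ctrl was low, with intervals that overlap between none of the 4. The log2 ratio was 1.57 for the combination over aPDL1 (1.39 to 1.75) and 1.17 over 2DG (1.0 to 1.33), and 0.73 and 0.99 with the cells chosen on counts thinned to 2000 UMIs. At 2000 UMIs per cell, a Gzmb UMI was found in 31.9% of cells in the combination (27.0 to 37.2), 19.4% with aPDL1 (15.3 to 23.95), 18.3% with 2DG (14.2 to 23.1) and 16.7% in ctrl (5.64 to 34.7), and unthinned in 41.6, 27.5, 29.0 and 22.2%. Myeloid cells gave 0.773, 1.03, 0.333 and 0.0290%. With cells chosen on thinned counts, the log2 ratio over ctrl turned round, to -0.73 with 2DG and -0.47 with aPDL1, a setting that changes both the depth and which cells are chosen.

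Granzyme A followed the same order among the treated libraries but was carried by fewer cells. Gzma had 828 CPM in the combination (786 to 871), 528 with aPDL1 (495 to 562), 614 with 2DG (579 to 652) and 126 in ctrl (82.4 to 185). The tenth of cells with most Gzma held 73.3% of its UMIs in the combination, 87.6% with aPDL1 and 94.2% with 2DG, and 102, 82 and 56 cells had any. Serpinb9, the inhibitor that shields killer cells from their own granzyme B, had 193 CPM in the combination, 99.3 with aPDL1, 86.1 with 2DG and 53.4 in ctrl (11 UMIs). Its order across the libraries was that of Gzmb except for the 2 single treatments. Prf1 ran in the order of Serpinb9 with smaller steps, at 152.5, 140, 113 and 112 CPM.

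The granzymes met in the same cells. At 2000 UMIs per cell, Gzma was found in 52.3% of Gzmb-positive cells of the combination (42.5 to 62.1) and in 12.3% of Gzmb-negative ones (8.32 to 17.3). With aPDL1 the shares were 39.4% (27.6 to 52.2) and 12.4% (8.72 to 16.9), and with 2DG 47.4% (34.0 to 61.0) and 8.66% (5.51 to 12.8). In ctrl 1 of 5 and 1 of 25 cells held it. The intervals of Gzmb-positive and Gzmb-negative cells are apart in each treated library. Gzmb was also more frequent among Klf2-positive cells of the treated libraries. In the combination 41.1% of Klf2-positive cells held Gzmb (32.5 to 50.1) and 26.2% of Klf2-negative ones (20.4 to 32.8), with 26.4 and 16.9% for aPDL1, 28.3 and 15.9% for 2DG and 15.4 and 17.6% in ctrl, and the intervals overlap in every library. Lef1 made no such division, with Gzmb in 35.6 and 30.6% of Lef1-positive and Lef1-negative cells of the combination, 17.2 and 20.1% with aPDL1, 18.4 and 18.3% with 2DG, and 7.69 and 23.5% in ctrl.

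**Figure D3:**
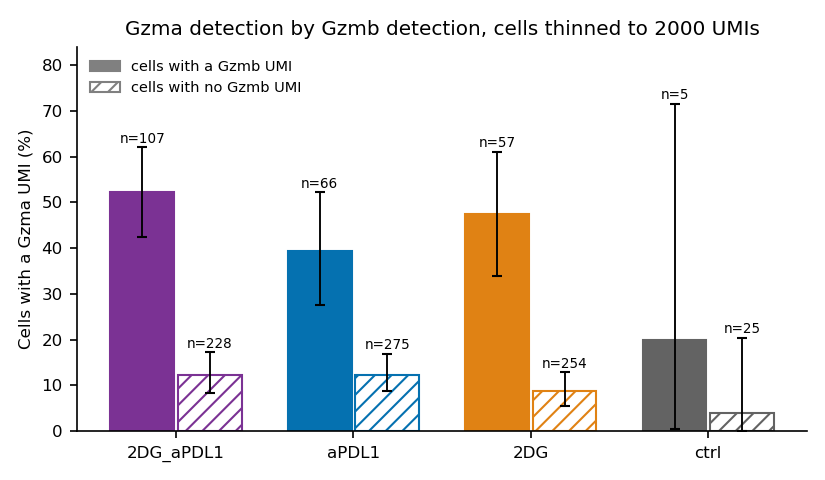
Share of checkpoint-low CD8 effectors with a Gzma UMI, in percent, among cells with a Gzmb UMI (filled) and without one (hatched), by library, after thinning to 2000 UMIs per cell, with exact 95% counting intervals and the number of cells. In the treated libraries the filled bars stand at 39.4 to 52.3% and the hatched ones at 8.66 to 12.4%, while ctrl has only 5 cells with Gzmb.

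Few genes moved the same way in both pairs that differ by 2DG. Of 3536 genes with at least 10 expected UMIs in each library, 27 were at least 1.5-fold higher both under 2DG against ctrl and under the combination against aPDL1 (0.764%) and 25 lower (0.707%), while 36 passed in each of the 2 opposite patterns (1.02% each). The split was 34 higher and 19 lower with TMM factors, and 25 and 30 with Gm42418 left out of the totals. By size, Gzmb, Mrc1, Fabp5, Gabpb1 and Dhx40 led the first and Cxcl3, S100a9, Spp1, Fn1 and Hspa1b the second. The 2DG over ctrl ratio of Gzmb turned round on thinned counts, as given above, and those of S100a9, Spp1 and Fn1 in the combination over aPDL1 did so too, to 3.92, 0.98 and 1.42. Mrc1, a macrophage receptor, rested on 12, 13, 12 and 1 cells in the combination, aPDL1, 2DG and ctrl, and Fabp5, a fatty acid carrier, turned to -0.22 in the combination over aPDL1 without cells that hold other-type markers. Cxcl3, S100a9, Spp1 and Fn1 are genes of neutrophils and macrophages. Neutrophil markers were highest in ctrl as given above, at 990 CPM. Monocyte or macrophage markers were lowest there, at 281 CPM against 489, 413 and 389 CPM in the combination, aPDL1 and 2DG. Cxcl3 had 1, 20, 8 and 91 UMIs in 1, 3, 2 and 6 checkpoint-low cells. In the myeloid cells themselves, each of these genes was highest in ctrl. Cxcl3 had 42.2, 42.9, 22.9 and 819 CPM there and Spp1 408, 651, 665.5 and 2677 CPM. S100a9 had 513, 1137, 2090 and 3422 CPM in myeloid cells, and Fn1 1376, 1868, 1761 and 2731 CPM. The part of such other cells in these ratios was not tested. Gabpb1, a subunit of an ETS-family factor, had 143, 68.9, 72.2 and 24.3 CPM, and Dhx40, an RNA helicase, 663.5, 357, 333 and 87.3 CPM, in both cases high in the combination and low in ctrl. Of 10 cytotoxic genes measured, 3 passed upwards (Gzmb, Gzma and Serpinb9) and 0 downwards, with the ctrl value of Gzma resting on 3 cells.

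The pairs that differ by aPDL1 gave similar numbers, and both comparisons draw on the same 4 libraries. Of 3596 genes, 38 were at least 1.5-fold higher both under aPDL1 against ctrl and under the combination against 2DG (1.06%) and 32 lower (0.89%), while 35 and 39 passed in opposite patterns (0.973 and 1.08%). The split was 49 higher and 25 lower with TMM factors, and 28 and 40 with Gm42418 left out of the totals. Emp1, Klrc2, Abcb1b, Irs2 and Cx3cr1 led the genes that were higher, and Hspa1b, S100a8, Hspa1a, S100a9 and Hsph1 those that were lower. S100a8 and S100a9 rested on few cells, with 84.5 and 85.7% of their UMIs under aPDL1 in 1 cell each. Emp1, a membrane protein, had 70.7 and 101 CPM in the combination and with aPDL1, against 23.9 and 29.1 CPM with 2DG and in ctrl, the clearest split by aPDL1 among them. Myeloid cells held more Emp1 in every library, at 155, 160, 100 and 349 CPM in the combination, aPDL1, 2DG and ctrl. The part of myeloid RNA in this split was not tested. Klrc2, the activating NKG2C receptor, had 176, 115, 66.7 and 34.0 CPM, and was found at 2000 UMIs in 28.1% of cells in the combination (23.3 to 33.2), 17.9% with aPDL1 (14.0 to 22.4), 7.39% with 2DG (4.75 to 10.9) and 3.33% in ctrl (0.0844 to 17.2). Its log2 ratio of 0.61 for the combination over aPDL1 was 0.31 with cells chosen on thinned counts. Cx3cr1, the fractalkine receptor, had 123, 80.8, 55.6 and 24.3 CPM, but the share of thinned cells that held it (18.2, 14.1, 9.65 and 3.33%) lay near that of myeloid cells (13.25, 16.9, 16.8 and 11.96%), which express it. Abcb1b, a drug efflux pump, had 474, 157, 121 and 63.1 CPM, and Irs2, an adaptor of insulin and interleukin 4 signals, 74.0, 55.9, 32.2 and 19.4 CPM. Each of these 4 was highest in the combination and lowest in ctrl.

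The genes called in checkpoint-low cells were also followed in other cells of the same libraries. Among checkpoint-receptor cells, 2 of the 27 higher and 6 of the 25 lower genes of the 2DG pairs passed 1.5-fold the same way in both pairs (7.41 and 24.0%), and 9 of the 38 and 9 of the 32 of the aPDL1 pairs (23.7 and 28.1%). In the pair without ctrl alone, 11, 9, 22 and 15 of them did. Among myeloid cells 3, 4, 4 and 5 passed in both pairs. The share of all genes that pass in those other cells was not computed. A gene that passed in one cell set and not in another is not shown to differ between them.

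Since ctrl held few cells, the combination was also set against both single treatments, a comparison chosen after the values were seen. Of 9033 genes, 429 were at least 1.5-fold higher in the combination than in each single treatment (4.75%) and 432 lower (4.78%). By size, Pak3, Cd79a, Ly6d, Cr2 and Ccl8 led the genes that were higher, and S100a8, S100a9, Hspa1b and Slc7a2 were among the leading genes that were lower. Most of those that were higher rested on few cells. All 34 Pak3 UMIs came from 1 cell, the B cell genes Cd79a, Ly6d and Cr2 from 7, 5 and 2 cells, and 92.3% of the UMIs of the chemokine Ccl8 from 1 cell. The genes described next are from the lists by role and were chosen after their values were seen. Of 11 killer lectin-like receptor genes of the list, 5 passed upwards and 0 downwards. In the combination over 2DG alone, 7 of the 12 measured passed upwards and 3 downwards, beside 10.3% of all genes each way. Klrk1, the activating receptor NKG2D, had 309, 186, 138 and 184 CPM, Klrd1 (CD94), the partner chain of NKG2 receptors, 305, 177, 171 and 238 CPM, and Klre1 146, 61.8, 87.2 and 82.5 CPM. The combination was highest in all 3, and ctrl did not lie below both single treatments as it did for Klrc2. In checkpoint-receptor cells Klrk1 had 221, 135, 170.5 and 243 CPM.

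Of 14 naive and memory genes, 3 passed upwards in the combination and 0 downwards, beside 4.75 and 4.78% of all genes. Klf2 had 485 CPM in the combination, 244 with aPDL1, 172 with 2DG and 417 in ctrl, with log2 ratios of 0.99 (0.83 to 1.16) and 1.5 (1.31 to 1.69) over aPDL1 and 2DG. Il7r had 375, 250, 157 and 340 CPM, and Satb1, a chromatin organiser of T cells, 704, 401, 283 and 471 CPM. In all 3 the combination was highest and ctrl lay above both single treatments. For Satb1, ctrl was nearer to aPDL1 than to the combination, and Il7r in ctrl rested on 70 UMIs. Tcf7 and Lef1 did not share this, at 96.7 and 276 CPM in the combination against 209 and 577 CPM in ctrl. Klf2 was also highest in the combination in checkpoint-receptor cells (132, 55.0, 48.9 and 68.5 CPM) and in myeloid cells (591, 341, 378 and 394 CPM), so its level moved in all 3 cell sets.

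Itgae, Tbx21 and Cd226 were lowest in the combination, each the only gene of its list that passed downwards against both single treatments. Of 19 homing and residence genes 2 passed upwards, of 18 effector regulators 3 and of 12 costimulation genes 2. Of all genes, 4.75% passed upwards and 4.78% downwards. Itgae, the integrin CD103 that holds T cells in epithelium, had 13.3 CPM from 24 UMIs in the combination, 52.6 with aPDL1, 67.8 with 2DG and 53.4 in ctrl, and was found at 2000 UMIs in 1.49% of cells (0.486 to 3.45) against 7.04% (4.56 to 10.3), 9.65% (6.60 to 13.5) and 13.3% (3.75 to 30.7). The log2 ratio was -1.97 over aPDL1 (-2.70 to -1.33) and -2.33 over 2DG (-3.05 to -1.71), and -1.43 and -0.98 with cells chosen on thinned counts. Tbx21, which encodes the effector factor T-bet, had 154, 324, 276 and 218 CPM, and its log2 ratio of -1.08 over aPDL1 and -0.85 over 2DG shrank to -0.22 and -0.24 with cells chosen on thinned counts, below 1.5-fold. Cd226, the activating partner of TIGIT for the ligand CD155, had 299, 616, 731 and 703 CPM. In checkpoint-receptor cells the combination was also lowest for Cd226 (489, 576, 734 and 624 CPM), and for Itgae it lay at 30.85 CPM beside 29.4 CPM in ctrl. Stat4, which carries interleukin 12 signals to T-bet, went the other way with 1080, 605, 576 and 796 CPM.

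**Figure D4:**
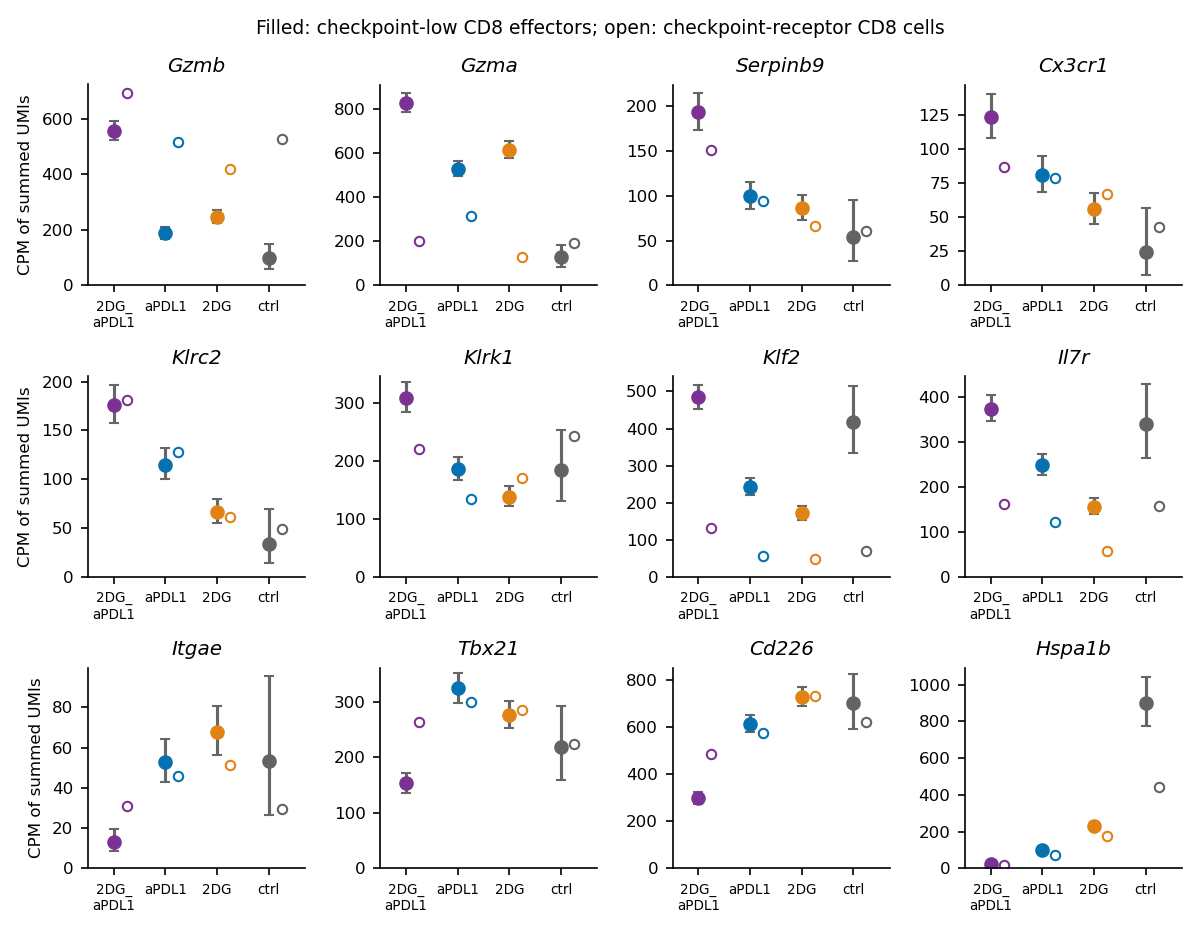
CPM of 12 genes by library in checkpoint-low CD8 effectors (filled, with exact Poisson 95% intervals) and in checkpoint-receptor CD8 cells (open). Gzmb, Serpinb9, Cx3cr1, Klrc2, Klrk1, Klf2 and Il7r are highest in the combination among filled points, Itgae, Tbx21, Cd226 and Hspa1b lowest there, and ctrl carries the widest intervals.

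Stress and immediate early genes differed between the libraries as a whole. Hspa1b, an inducible HSP70, had 23.2, 101, 229 and 902 CPM in the combination, aPDL1, 2DG and ctrl, in the same order as 15.9, 70.7, 175 and 444 CPM in checkpoint-receptor cells and 41.9, 209, 226 and 332 CPM in myeloid cells. Of 12 heat shock genes measured in the 2DG pairs, 3 passed downwards (Hspa1a, Hspa1b and Hsph1), beside 0.707% of all genes, and 0 upwards, while the constitutive Hspa8 had 1109, 1156, 1076 and 878 CPM. Of 19 immediate early genes, 7 passed upwards in the combination against both single treatments, beside 4.75% of all genes, and 0 downwards. Junb had 1662, 849, 720 and 679 CPM, and Zfp36, an RNA-binding brake on cytokine transcripts, 268, 78.7, 90.6 and 150 CPM. In myeloid cells Junb had 1835, 1134, 1197 and 1149 CPM and Zfp36 1127, 397, 557 and 996 CPM, again highest in the combination. All 40 ribosomal protein genes of the list were higher in the combination than in each single treatment, with medians of 0.365 and 0.471 over aPDL1 and 2DG, and 7 passed 1.5-fold. Of all genes, 46.4 and 48.4% were higher in these ratios, with medians of -0.042 and -0.008. The share of UMIs in the ribosomal RNA-linked gene Gm42418 was 3.15% in the combination, 5.97% with aPDL1, 7.98% with 2DG and 5.79% in ctrl, and followed the same order in checkpoint-receptor cells (2.695, 5.21, 6.88 and 5.02%). The part of such library-wide differences in the other ratios was not tested.

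Glucose-linked genes were followed because 2DG is a glucose analogue. Of 13 glycolysis genes measured in the 2DG pairs, 1 passed 1.5-fold downwards (Pgk1) and 0 upwards, where 0.707 and 0.764% of all genes did. Pgk1, which makes ATP in lower glycolysis, had 101, 152, 112 and 218 CPM. The glucose transporter Slc2a1 had 64.6, 64.6, 72.8 and 146 CPM, so that only ctrl was high. Myeloid cells had 168, 203, 193 and 414 CPM of Slc2a1, also highest in ctrl. Txnip, a glucose-induced arrestin, had 183, 232, 332 and 252 CPM. Of 7 early and 10 later N-glycan enzymes measured in the same pairs, 0 passed in either direction, and of 12 interferon-induced genes 1 did (Rsad2, upwards).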

How the data were processed

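The authors deposited unnormalized whole-number UMI counts for each barcode, per the file headers and values, from 4 droplet libraries that read the 3' ends of polyadenylated RNA, per the labels. The matrix headers name Cell Ranger 7.0.0, while the submitters' processing notes name version 3.1.0 and mm10, and the handling of intronic reads is not stated in either. Libraries held 61859753 to 73885214 UMIs over 8701 to 9948 barcodes. Barcodes under 500 genes or over 10% mitochondrial UMIs were dropped, and doublets were left in, with Scrublet (scanpy 1.11.5) as an alternative. Raw UMIs of the chosen cells were summed per library and given as CPM; log2 ratios used counts plus 0.5. A gene was measured in a pair where at least 10 UMIs were expected in each library at the pooled rate, and called at 1.5-fold or more the same way in both pairs (or all 4 libraries). Receptor segments, immunoglobulin, haemoglobin and mitochondrially encoded genes and the genes of the rule were left out. Shares carry Clopper-Pearson intervals, levels exact Poisson and ratios exact conditional binomial intervals. Named by size were up to 5 genes per direction, ranked by their smallest ratio; others come from lists by role. Some genes that these rules name are not reported here. Genes named in the comparison of the combination with the single treatments were chosen after their values were seen. Myeloid cells were those with 0 Cd3 UMIs and at least 5 of Lyz2, Csf1r and C1qa. The size rule was tried on simulated counts, drawn as independent Poisson counts, while real UMIs of some genes came from few cells. The simulation therefore cannot show how often unchanged genes pass in these data. The cells' rule and the gene lists were chosen with earlier results of these data known. Alternatives covered cell filters, doublets, other-type markers, both limits of the rule, thinning to 2000 UMIs, TMM factors (edgeR 4.0.16), cell weighting, totals without Gm42418 and no count filter.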

Additional observations from a re-analysis of the deposited data

Results flagged for a closer look

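Some genes lay past 1.5-fold one way without the second agent and past it the other way with it, in single libraries, a difference that was not tested. Log2 ratios of 2DG over ctrl against the combination over aPDL1 were -1.29 and 0.99 for Klf2, -1.12 and 0.59 for Il7r, -0.74 and 0.81 for Satb1, -0.61 and 0.64 for the costimulator Icos, -1.34 and 0.78 for Tnfrsf9, -1.10 and 1.22 for the activation-induced receptor Nr4a1, and -0.75 and 1.77 for Zfp36. For aPDL1 over ctrl against the combination over 2DG they were -0.78 and 1.5 for Klf2, -0.70 and 0.82 for Bach2, -1.20 and 1.12 for Nr4a1, -0.81 and 1.31 for Tnfrsf9, -0.95 and 1.56 for Zfp36, -3.62 and 0.79 for Spp1, and 1.21 and -0.60 for Itgb1. Of all genes measured, 1.02% passed in each opposite pattern of the first comparison and 0.973 and 1.08% in those of the second, and all of these ratios use the 36 ctrl cells.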

How the results depend on the processing

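No paired analysis was possible because each treatment had 1 library. The share of checkpoint-low effectors in the combination, aPDL1 and 2DG (3.67, 3.98 and 3.99%) became 6.86, 6.46 and 7.18% on thinned counts, and 2.15, 2.25, 2.20 and (ctrl, from 0.396) 0.209% with 0 receptor UMIs; without cells holding other-type markers the combination gave 3.27%. In the 2DG pairs the 27 genes higher became 16 without other-type markers, 13 with 0 receptor UMIs, 8 on thinned counts and 335 with no count filter, and the 25 lower became 12 thinned, 38 with equal cell weights and 1408 unfiltered. In the aPDL1 pairs the 38 higher became 25 thinned and 408 unfiltered, and the 32 lower became 14 with 0 receptor UMIs, 5 thinned and 1271 unfiltered. Against checkpoint-receptor cells, the 47 higher and 72 lower became 7 and 8 on thinned counts, where 965 genes were measured, and 207 and 193 unfiltered; 9 of the 47 and 35 of the 72 were measured there, of which 9 and 30 kept their direction in all 4 libraries. Thinned counts turned round the log2 ratios of Cxcr3 against checkpoint-receptor cells in the combination (-0.00556), Tox in ctrl (0.20), Gzmb in 2DG over ctrl (-0.73) and aPDL1 over ctrl (-0.47), S100a9 in the combination over 2DG (0.0483), and Fabp5 (-0.0519), Fn1 (1.42), Irf8 (-0.20), S100a9 (3.92) and Spp1 (0.98) in the combination over aPDL1. There Fabp5 also gave -0.0211 after doublet removal and -0.22 without other-type markers, and Mrc1 -1.41 with 0 receptor UMIs. List medians turned round for cytotoxic genes against checkpoint-receptor cells with aPDL1 (0.00464, thinned), for cytokines and chemokines there in ctrl (0.19, equal cell weights), and for heat shock in 2DG and aPDL1 over ctrl (0.0437 and 0.27, thinned). The cause was not tested, apart from the smaller number of genes measured on thinned counts. The comparison of the combination with both single treatments, totals without Gm42418 and every alternative for the contrast with checkpoint-receptor cells were chosen after seeing the data. Of the ratios of named genes under alternatives, 2273 moved by less than their counting interval and 390 by more. Of ratios past 1.5-fold, 13 turned round, and of smaller ratios 12 that moved by less and 9 that moved by more changed sign, among them Gzma, Itgb1 and Cxcr6 against checkpoint-receptor cells in ctrl on thinned counts (5.10, 1.695 and 0.29). In 10 alternatives, Gzmb in the combination stayed between 0.73 and 1.76 over aPDL1 and between 0.93 and 1.22 over 2DG, and Itgae between -2.42 and -1.43 and between -2.69 and -0.98. Depth limits every value in ctrl, where 3 UMIs amount to 14.6 CPM.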
